A study of Mus musculus with 144 samples.

Results

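The genes described here encode the nuclear subunits of the oxidative phosphorylation system, the 5 protein complexes of the inner mitochondrial membrane. Members were protein-coding genes of the deposited expression table with symbols that start with Ndufa, Ndufb, Ndufc, Ndufs or Ndufv (assembly factors called Ndufaf excluded), Uqcr, Cox4 to Cox8 or Atp5, together with Sdha to Sdhd. This gave 88 of the 55364 genes of the table: 39 of complex I, 4 of complex II, 8 of complex III, 19 of complex IV and 18 of complex V. Among them, Ndufb1-ps and Cox5b-ps are typed as protein-coding in the table in spite of their names, and Atp5o is listed under 2 gene identifiers.

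Complexes I and II pass electrons from NADH and succinate to ubiquinone, complex III passes them on to cytochrome c, and complex IV passes them to oxygen. Complexes I, III and IV pump protons in doing so, and complex V, the ATP synthase, makes ATP as the protons flow back. Subunits are encoded in both the nuclear and the mitochondrial genome, and several of complexes IV and V exist as isoforms used by different tissues. Microglia, the resident macrophages of the retina, use this system beside glycolysis. Subunits encoded in the mitochondrial genome were not analysed here.

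The samples were single cells sorted from the retina of mice of the strain Iba1-EGFP, in which a reporter marks cells of the macrophage lineage. There were 48 cells from mice given PBS, 48 after ripasudil at 1 mg/kg (low dose) and 48 after ripasudil at 10 mg/kg (high dose). Each group was spread over 3 plates, with 16 of its cells on each. All groups were on every plate, each in a block of wells that was the same on all plates. Dose and well position therefore cannot be told apart, also where plates have the same sign. Ripasudil is a protein kinase inhibitor, and the design compares its 2 concentrations with vehicle. The PBS mice were 10 to 14 weeks old, the low-dose mice 14 weeks and the high-dose mice 12 weeks, so dose and age cannot be told apart. The labels name no animal, and each group was therefore treated as 1 sample: differences are descriptions of these cells, with no p-value and no replicate check, and spreads are over cells. All groups carried the same reporter, and injury of the optic nerve is named in the title of the series but not in the labels of these cells.

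Cells with at least 1000 genes at 1 FPKM or more were kept (46 PBS, 47 low dose, 47 high dose). FPKM is the read count of a gene scaled by gene length and by all reads assigned in the cell. Assigned reads per kept cell ranged from 30204 to 4668730, with a median of 1614850. The median number of detected genes (1 FPKM or more) was 3143 in PBS, 2418 in low-dose cells and 2264 in high-dose cells. Csf1r, a receptor gene of microglia and macrophages, was detected in 100% of kept cells. Of 10 microglia markers, P2ry12 and Trem2 were detected in the fewest cells (77.9% each), then Tmem119 (88.6%). At least 3 of 8 neutrophil markers were detected in 9 PBS, 8 low-dose and 8 high-dose cells. For at least 3 of 7 Mueller glia markers the counts were 6, 3 and 5, and for at least 3 of 7 border macrophage markers 4, 4 and 3. At least 3 of 13 rod photoreceptor markers were detected in 10 PBS, 8 low-dose and 15 high-dose cells. Over all kept cells the summed level of the 13 ranged from 0 to 413, 0 to 5262 and 0 to 16430 FPKM with medians of 17.3, 25.6 and 15.5. These counts and sums include Gnb1, which was detected in 66.4% of kept cells, whereas each of the other rod markers was in 1.43 to 23.6%. The median summed FPKM of the subunits was 10478 in the 33 cells with at least 3 rod markers and 10439 in the other 107.

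Many subunit genes share stretches with other annotated transcripts. Of the 79 genes compared below 30 have a near copy, here any match of at least 95% identity over 75 bases. A match need not be a relative of the gene: Atp5md had 153 of them, Atp5g1 51 and Ndufc1 36, with genes such as Adh5 and Chek2 among them. Exons of 30 of the 79 genes overlap another annotated gene, and strand use in counting is not given. Ndufs3, Ndufa9, Ndufa13, Ndufa2, Ndufb1-ps, Cox4i1 and Atp5a1 are among these. Sequences are shown for a family and a pair among the members themselves, where coding bases are shared to different degrees. Atp5g1, Atp5g2 and Atp5g3 encode the c subunit, which forms the rotor ring of complex V. Over the last 75 codons before the stop their sequences encode the same residue at 75 of 75 positions, although only 191 of 225 bases are shared by Atp5g1 and Atp5g2, 180 by Atp5g1 and Atp5g3 and 177 by Atp5g2 and Atp5g3. The last 120 coding bases, stop codon included, are given from GENCODE M21, with capitals where the 3 genes are not all alike.
Atp5g1: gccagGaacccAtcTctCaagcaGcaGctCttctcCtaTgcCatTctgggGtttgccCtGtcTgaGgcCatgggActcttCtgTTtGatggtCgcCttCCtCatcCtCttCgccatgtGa
Atp5g2: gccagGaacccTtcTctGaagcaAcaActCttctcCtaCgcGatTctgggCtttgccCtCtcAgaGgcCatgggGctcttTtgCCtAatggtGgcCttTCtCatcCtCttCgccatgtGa
Atp5g3: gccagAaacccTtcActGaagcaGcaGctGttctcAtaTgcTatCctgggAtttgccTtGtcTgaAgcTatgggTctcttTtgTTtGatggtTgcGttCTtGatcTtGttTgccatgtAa
Cox5b encodes a zinc-binding subunit of complex IV, and its coding sequence is shared with that of Cox5b-ps at 387 of 390 bases. The coding bases 94 to 213 of both are given from GENCODE M21, with capitals at their differences.
Cox5b: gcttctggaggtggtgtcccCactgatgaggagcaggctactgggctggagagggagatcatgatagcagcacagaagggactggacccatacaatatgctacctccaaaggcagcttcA
Cox5b-ps: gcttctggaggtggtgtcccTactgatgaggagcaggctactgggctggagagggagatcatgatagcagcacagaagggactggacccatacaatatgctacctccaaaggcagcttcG
Whole reads within 0.01 read made up 99.1% of the values above 0 for Atp5g3 but 34.2% for Atp5g1, 8.20% for Atp5g2, 34.5% for Cox5b and 10.7% for Cox5b-ps. The other values were fractions of a read, as a division of reads among genes would give, and the counting settings are not given in the sources used here. Over all subunits 68.4% of values above 0 were whole reads, against 53.4% over all genes. For 20 of the subunits in the comparisons fewer than 50% of values were whole, and their levels are uncertain.

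Promoters of many subunit genes carry sequence motifs of a few activators, and these were looked up in RefSeq windows of build GRCm38.p6 that reach from 250 bases before to 50 bases after the start. Of 69 subunit genes with a window, the NRF1 motif GCGCATGC was in 10 (14.5%), against 3.05% of the windows of 27025 genes. The ETS motif CCGGAAG, which GABP binds, was in 17 (24.6%, against 9.93%). The YY1 motif AAGATGGCG was in 7 (10.1%, against 1.64%), and the motif of the estrogen-related receptors, TCAAGGTCA, was in 2 (2.90%, against 0.466%). Both strands were searched, motifs were allowed to overlap, and a match is a description of letters only. The upstream windows of Atp5g3 (chr2:73911327-73911576, minus strand) and Atp5l (chr9:44920752-44920992, minus strand) are given 5′ to 3′ as examples with the motif in capitals, chosen after matches and values were seen. The first holds the motif of the estrogen-related receptors, and the second holds NRF1 and then ETS.
Atp5g3: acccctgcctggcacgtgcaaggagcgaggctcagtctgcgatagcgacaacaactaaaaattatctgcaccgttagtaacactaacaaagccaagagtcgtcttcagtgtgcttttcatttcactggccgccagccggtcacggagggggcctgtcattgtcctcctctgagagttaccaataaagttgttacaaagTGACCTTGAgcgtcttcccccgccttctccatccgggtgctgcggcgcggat
Atp5l: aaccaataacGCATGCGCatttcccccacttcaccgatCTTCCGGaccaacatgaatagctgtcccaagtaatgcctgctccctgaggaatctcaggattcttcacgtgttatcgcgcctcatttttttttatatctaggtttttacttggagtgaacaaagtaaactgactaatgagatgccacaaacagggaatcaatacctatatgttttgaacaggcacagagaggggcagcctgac

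The subunits spanned a wide range of levels in these cells. Of the 88 members, 79 reached 1 FPKM in 25% or more of the cells of some group and entered the comparisons, as did 4806 genes in all. These were 37 of 39 members of complex I, all 4 of complex II, all 8 of complex III, 12 of 19 of complex IV and all 18 of complex V. Below that limit were Ndufs1, Ndufa4l2, Cox4i2, Cox6a2, Cox6b2, Cox7a1, Cox7b2, Cox8b and Cox8c. Among the 79, mean FPKM over all kept cells ran from 4.75 for Ndufb2, an accessory subunit of complex I, to 908 for Cox8a, a small subunit of complex IV. The next in order were Uqcrb of complex III at 677, Cox6a1 at 494, Cox6b1 at 457, Cox4i1 at 439 and Ndufa1 at 417. The place of Uqcrb leans on few cells: 1 PBS cell at 41084 FPKM held 64.3% of the summed FPKM of that group, and the next was at 10335. Since all these levels are per gene length they can be set beside each other, but the spread over cells is wide: Cox8a ranged from 0 to 17438 FPKM in PBS cells with a median of 309. Neighbours in that order, such as Cox6a1 and Cox6b1, do not differ beyond that spread.

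Detection was high for few subunits. Only 4 of 88 members were detected in at least 90% of the 140 cells, and 54 in at least 50%. Atp5b, the catalytic beta subunit of complex V, was detected in 97.1%, Cox8a in 92.9% and Cox4i1 in 91.4%. No member of complex I reached 90%. Ndufs1, a core subunit that holds iron-sulfur clusters, was detected in 15.7%, and Ndufv1, which carries the NADH site, in 27.1%. The small accessory subunit Ndufa4 was detected in 72.9%. These examples do not separate core from accessory subunits. In cells thinned to equal depth (described below), core Ndufs8 had a read in 73.2% of PBS, 54.3% of low-dose and 68.2% of high-dose cells. For the accessory subunit Ndufb2 the shares were 41.5%, 30.4% and 34.1%. Ndufa4 is counted with complex I by its name, although its protein has also been assigned to complex IV. In the median cell complex I held 34.7% of the summed subunit FPKM, complex IV 25%, complex V 20.3%, complex III 12.5% and complex II 2.76%.

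Among the isoforms of complex IV the ubiquitous forms were detected and those typical of muscle, lung or testis hardly at all. Cox4i1 was detected in 91.4% of cells (95% interval 85.5 to 95.5%, exact Clopper-Pearson, counting error only) and Cox4i2, the form of lung, in 0.714% (0.0181 to 3.92%). Cox6b1 was detected in 90% and Cox6b2, a testis form, in 2.14%. Cox8a was detected in 92.9%, the testis form Cox8c in 0.714%, and the muscle form Cox8b in 0 of 140 cells, where the interval reaches up to 2.60%. Cox7a2 was detected in 68.6%, Cox7a2l, a factor that joins complexes into supercomplexes, in 40%, and the muscle form Cox7a1 in 1.43%. Cox7b was detected in 62.9% and Cox7b2 in 1.43%. Ndufa4 (72.9%) and its relative Ndufa4l2 (2.14%) differed in the same direction.

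Cox6a2, the heart and muscle form of Cox6a, differed from the other tissue-restricted forms. It was detected in 16 of 140 cells (11.4%, 6.68 to 17.9%), namely in 3 PBS, 7 low-dose and 6 high-dose cells, while its partner Cox6a1 was detected in 87.9%. Whole reads made up 100% of its values. Of the 16 cells 1 had at least 3 rod markers, as did 33 of all 140. The highest value was 89.8 FPKM in PBS, 177 in low-dose cells and 2210 in high-dose cells. An exon of Cox6a2 overlaps Itgad, and with no statement on strand in counting the reads of both genes cannot be told apart. The 3 c-subunit genes were detected in similar shares of cells, with 55.0% for Atp5g1, 62.9% for Atp5g2 and 54.3% for Atp5g3. The plot of isoform detection by group shows the contrast within each pair.

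**Figure D1:**
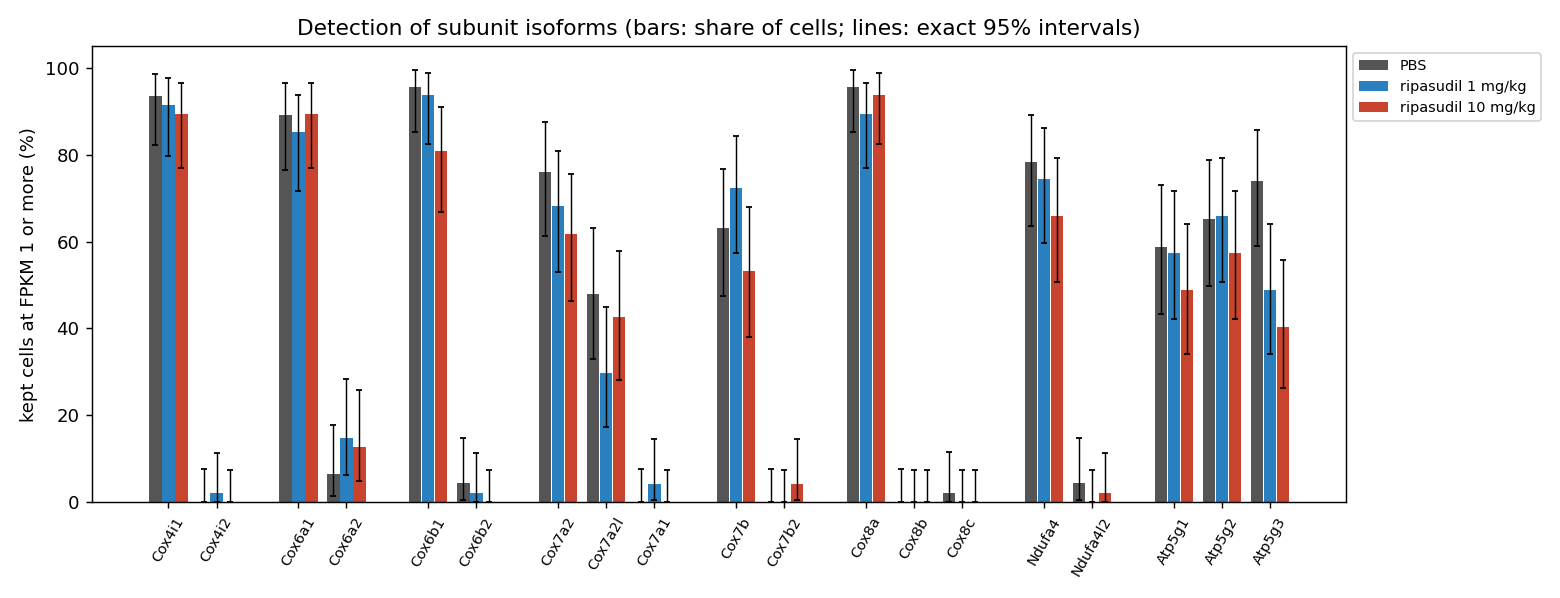
Share of kept cells (vertical axis, percent) with each isoform at 1 FPKM or more in PBS (grey), low-dose (blue) and high-dose (red) cells, with exact 95% intervals as lines. Cox4i1, Cox6a1, Cox6b1 and Cox8a stand above 80% in all 3 groups, Cox4i2, Cox6b2, Cox7a1, Cox7b2, Cox8b and Cox8c stand under 5%, and Cox6a2 lies between 6.52% and 14.9%.

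Per cell, the treated groups had fewer subunits detected but a summed level like that of PBS. The number of the 88 members detected in a cell ranged from 20 to 81 in PBS with a median of 50.5. It ranged from 17 to 80 at the low dose with a median of 39 and from 9 to 79 at the high dose with a median of 39. The groups overlapped over most of this range, and the medians were lower than those of PBS on each plate: 49, 54 and 45.5 in PBS, 34, 42 and 35.5 in low-dose cells, 42, 40 and 37.5 in high-dose cells. In cells thinned to 300000 reads each (5 PBS cells, 1 low-dose cell and 3 high-dose cells were shallower and dropped) the median number of members with a read was 52, 38.5 and 39.5. Counted at any FPKM above 0 instead, the medians were 59.5, 57 and 58.

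This number moved with the total number of genes detected. Over the 140 cells the correlation of detected subunits with detected genes was r = 0.84 (rho = 0.85), a description in which both counts come from the same library. Subunits made up a median of 1.56% of the detected genes in PBS, 1.56% in low-dose cells and 1.71% in high-dose cells. The part of the number of detected genes in the differences below was not tested beyond the adjusted values given there.

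The summed FPKM of the subunits had a median of 10339 in PBS cells (1093 to 50671), 10961 at the low dose (945 to 29297) and 9795 at the high dose (269 to 24215). The groups overlapped almost fully, and plates disagreed on their order: the high dose had the lowest median on plate 1 (9088) and the highest on plate 3 (13353). As a share of assigned reads the subunits took a median of 1.54%, 1.65% and 1.5%. A single gene can make up much of the sum: the highest PBS value was 38250 FPKM for Ndufs7 and 41084 for Uqcrb.

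**Figure D2:**
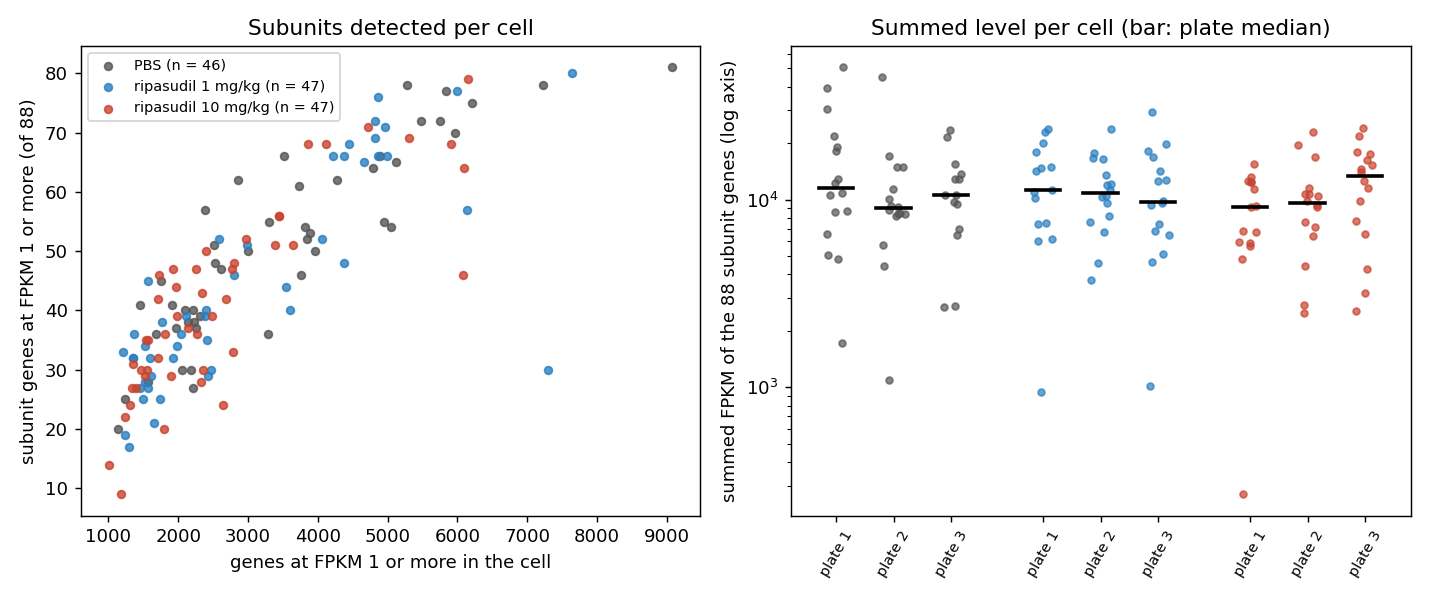
Left, number of the 88 subunit genes at 1 FPKM or more in each cell against all genes at that level (PBS grey, low dose blue, high dose red); right, summed FPKM of the subunits per cell on a log axis by group and plate, with black bars at plate medians. Cells of all groups lie along 1 band on the left, with 1 low-dose cell of 30 subunits far below it, and the plate medians on the right lie between 9014 and 13353.

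At the high dose, subunits of all 5 complexes were lower than in PBS on the scale of mean log2(FPKM + 1). The size of a difference on this scale depends on the share of cells that lack a gene and on the number added before the logarithm. With 0.1 or 10 added in place of 1 the median of the subunits was -1.07 or -0.38, against -0.74 or -0.14 for all genes. Of the 79 measured subunits 68 were lower (86.1%, against 81.4% of all genes), with a median difference of -0.76 against -0.43 for all 4806 genes. The median was -1.04, -0.56 and -0.81 on the 3 plates. By complex it was -0.81 for complex I, -0.77 for complex II, -0.76 for complex III, -0.63 for complex IV and -0.86 for complex V, but after adjustment for detected genes per cell and plate it was -0.23, 0.022, 0.12, -0.045 and -0.21, so that complexes II and III changed sign. A difference of at least 1 in size with the same sign on all 3 plates, called past the fold below, was seen for 22 subunits (27.8%) in the lower direction, against 13.4% of all measured genes, and for 0 in the higher direction, against 0.0624%. Over all subunits the adjusted median was -0.21 against -0.055 for all genes, with 4 past the fold lower (5.06%, against 2.52% of all genes) and 1 higher (1.27%, against 0.375%). On the ratio of mean FPKM it was -0.052 against -0.054, with 8 lower (10.1%, against 12.0%) and 7 higher (8.86%, against 5.58%), and complexes I and II were at 0.018 and 0.37. Each cell centred on all measured genes gave -0.29 against 0.038 for all genes, with 8 lower (10.1%, against 3.10%) and 1 higher (1.27%, against 1.54%). Cells with fewer than 3 rod markers gave -1.02 against -0.54 for all genes, with 34 past the fold lower (43%, against 19.2% of all genes).

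**Figure D3:**
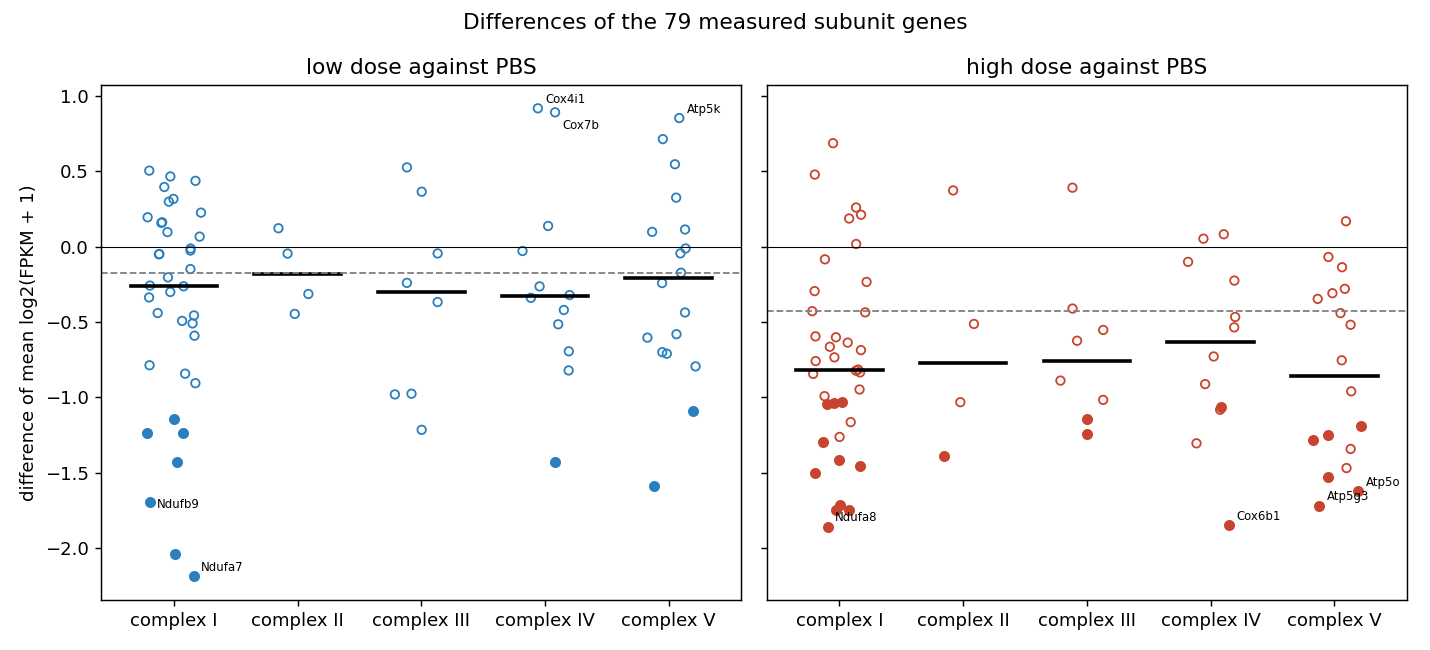
Difference of mean log2(FPKM + 1) of each of the 79 measured subunits against PBS by complex, for the low dose (left) and the high dose (right). Filled points are at least 1 in size with the same sign on all 3 plates, black bars are complex medians and the dashed line is the median of all 4806 genes; at the high dose each bar lies below that line.

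Complex I had 11 of its 37 measured subunits past the fold lower at the high dose (29.7%, against 27.8% of all subunits and 13.4% of all genes). Ndufs7 (chr10:80249121-80256794), a core subunit at the site where ubiquinone is reduced, had a median of 3.03 FPKM in PBS (0 to 38250), 0.739 at the low dose (0 to 637) and 0.876 at the high dose (0 to 583). Most cells of all groups were low and the groups overlapped. A single PBS cell held 88.3% of the summed FPKM of that group, which bears on means of FPKM more than on means of logarithms. Against PBS the high-dose difference was -1.75 and the low-dose difference -1.23, with the same sign on each plate. The core subunit Ndufs3 was at -1.5, and was detected in 52.2% of PBS and 14.9% of high-dose cells, but its ratio of mean FPKM went the other way (log2 ratio 0.19), with 1 high-dose cell at 1937 FPKM. Of the other core subunits Ndufs8 was at -1.26, but with 0.16 on plate 3, Ndufv2 at -1.16 with 0.57 on plate 2, and Ndufv1 at -0.60.

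Accessory subunits surround this core. Ndufa8 (chr2:36036326-36049406, minus strand) had the largest high-dose difference of the members, -1.86, with mean log2(FPKM + 1) of 4.40 ± 3.78 in PBS (SD over 46 cells) and 2.54 ± 3.46 at the high dose (47 cells). Its median was 11.3 FPKM in PBS (0 to 6658), 51.5 at the low dose (0 to 1423) and 0.713 at the high dose (0 to 1778). All its values above 0 were whole reads. The groups overlapped, and at the low dose the difference was 0.16. Ndufa9, which lies where both arms of the complex meet, was at -1.75, with -1.68, -1.82 and -1.84 on the plates, and its median was 3.93 FPKM in PBS and 0.378 at the high dose. Ndufa7 was at -1.45, Ndufb7 at -1.41, Ndufb8 at -1.30, Ndufs6 at -1.04, Ndufb1-ps at -1.03 and Ndufa13 at -1.03, of which Ndufa13 turned to 0.095 in cells with at least 2000 genes. In the other direction Ndufs5 was the only member with a higher level on all 3 plates, by 0.48, with a median of 2.29 FPKM in PBS and 4.10 at the high dose.

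Complex II, succinate dehydrogenase, also works in the citric acid cycle, and its 4 genes had unlike differences. Sdhb, the iron-sulfur subunit, had a median of 44.8 FPKM in PBS (0 to 2361), 71.7 at the low dose (0 to 2037) and 1.46 at the high dose (0 to 777). The groups overlapped, with the upper values lowest at the high dose, and its difference was -1.39 at the high dose (past the fold) and 0.12 at the low dose. Sdha, the flavoprotein that oxidises succinate, was at -1.03 with 0.88 on plate 2. Of the membrane anchors, Sdhd was at -0.51 and Sdhc at 0.37.

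In complex III the small subunits Uqcrq (-1.24) and Uqcr10 (-1.15) were past the fold, although Uqcr10 turned to 0.26 in cells of similar gene number. The catalytic Rieske protein Uqcrfs1 was at -0.41 and the core proteins Uqcrc1 and Uqcrc2 at -0.62 and 0.39. Uqcrb, the most abundant member of the complex, was at -0.89, with medians of 176 FPKM in PBS (0 to 41084), 102 in low-dose cells and 78.9 in high-dose cells. Only 33.1% of its values were whole reads. Uqcr11 was at -0.55, with 121, 110 and 29 FPKM.

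In complex IV, Cox6b1, which faces the intermembrane space, had a median of 298 FPKM in PBS (0 to 1469), 410 at the low dose (0 to 4986) and 61.2 at the high dose (0 to 1055). Its high-dose difference was -1.85, with -1.72, -1.29 and -2.46 on the plates, and its mean log2(FPKM + 1) was 7.12 ± 3.02 in PBS and 5.28 ± 3.59 at the high dose. At the low dose it was at -0.42, with 1.06 on plate 2. Cox7b was also past the fold at -1.07. Cox8a was at -1.08 but at 0.09 on plate 3, with medians of 309, 267 and 181 FPKM. Cox4i1 (0.05) and Cox6a1 (-0.10) were close to PBS, with medians of 211 and 212 FPKM for Cox4i1 and 190 and 194 FPKM for Cox6a1.

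Complex V had 6 of 18 subunits past the fold lower at the high dose (33.3%, against 27.8% of all subunits and 13.4% of all genes). Atp5g3 (chr2:73908447-73911326, minus strand), whose promoter and coding end are printed above, had a median of 49.0 FPKM in PBS (0 to 1098), 0.781 at the low dose (0 to 602) and 0.726 at the high dose (0 to 310). It was detected in 73.9%, 48.9% and 40.4% of cells, and in 70.7%, 47.8% and 45.5% with a read after thinning. Its differences were -1.72 (high dose) and -1.58 (low dose), while Atp5g1 was at -0.07 and 0.71 and Atp5g2 at 0.17 and -0.04. The 3 genes for the same final residues thus had unlike values, with the reservation on fractional reads of Atp5g1 and Atp5g2. Among genes of the peripheral stalk, Atp5pb was at -1.28, but at 0.054 on the log2 ratio of mean FPKM, and Atp5o at -1.62 (ENSMUSG00000116933) and -1.19 (ENSMUSG00000022956). The Atp5o entries share exons and hold 26.9% and 28.7% whole reads, so they are not independent. Atp5h, also of the stalk, was at -0.52, with medians of 121 FPKM in PBS and 30.9 at the high dose, and was not past the fold. Atp5mpl, a small membrane subunit, was at -1.53 and Atp5l, another, at -1.25 with 12.3% whole reads. The alpha and beta subunits form the head of the enzyme. Atp5a1, the alpha subunit, was at -1.47 with 0.13 on plate 2, and Atp5b, the catalytic beta subunit, at -0.35 with medians of 257 FPKM in PBS and 245 at the high dose.

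**Figure D4:**
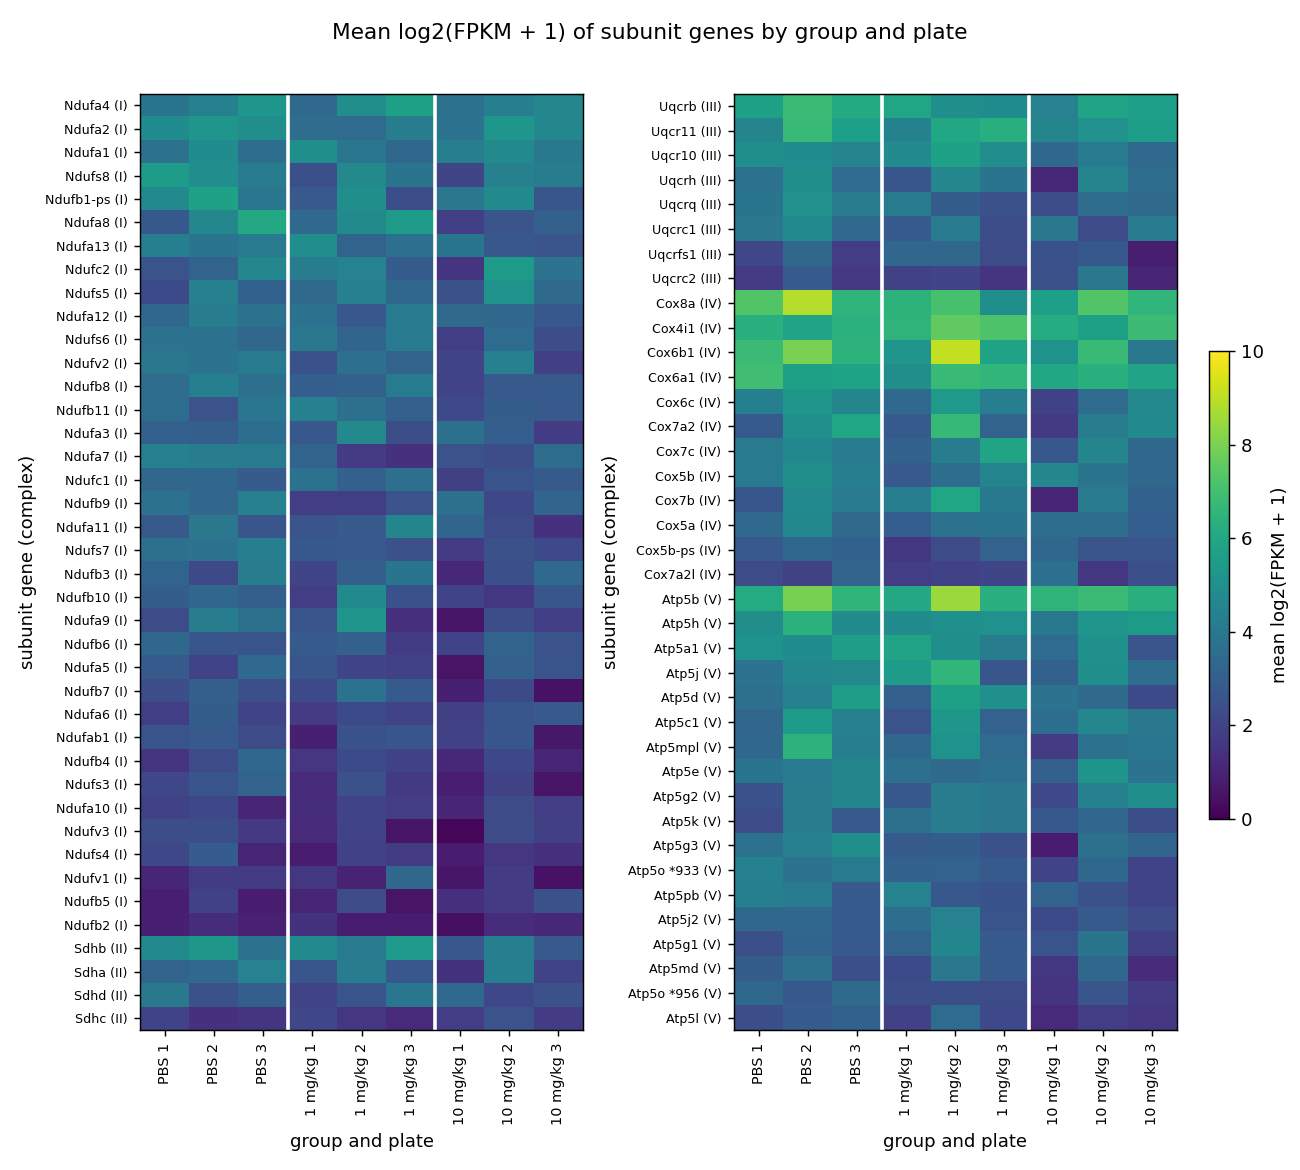
Mean log2(FPKM + 1) of 78 of the 79 measured subunits (rows, complex in brackets) by group and plate (columns), ordered by level within each complex; the 2 Atp5o rows are marked by the last digits of their identifiers. Cox8a, Cox4i1, Cox6b1, Cox6a1 and Atp5b are high in most columns, and plates of 1 group differ from each other.

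At the low dose the differences were smaller and depended on how they were computed. Of the 79 subunits 55 were lower (69.6%, against 64.7% of all genes). The median was -0.26 against -0.18 for all genes, and -0.19, -0.17 and -0.33 on the plates. Complex medians were -0.26, -0.18, -0.30, -0.33 and -0.21 for complexes I to V. Past the fold were 10 subunits in the lower direction (12.7%, against 4.93% of all genes) and 0 in the higher direction (against 0.52%). The median changed sign to 0.10 after adjustment for detected genes and plate (all genes 0.052), with 5 past the fold lower (6.33%, against 1.48% of all genes) and 2 higher (2.53%, against 1.44%). It was 0.16 on the ratio of mean FPKM (all genes 0.056), with 5 lower and 5 higher (6.33% each, against 8.59% and 6.89%). In cells of similar gene number (1716 to 4957 genes) it was 0.44 (all genes 0.32), with 3 lower (3.80%, against 1.59%) and 14 higher (17.7%, against 11.2%). No direction for the subunits as a group can therefore be given at this dose.

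Of those 10 subunits 7 belonged to complex I, or 18.9% of its 37 measured subunits. Past the fold in that direction were 12.7% of all measured subunits and 4.93% of all genes. The accessory subunit Ndufa7 (chr17:33824572-33838317) had a median of 48.3 FPKM in PBS (0 to 3750), 0.653 at the low dose (0 to 657) and 1.27 at the high dose (0 to 1228). Its low-dose difference was -2.19, with -1.22, -2.53 and -2.73 on the plates. Ndufs7 is described above. Others were Ndufb9 at -1.70, Ndufb1-ps at -1.43, Ndufa2 at -1.24 and Ndufs8 at -1.15, which turned to 0.52 in cells of similar gene number. Ndufb9 had a median of 8.28 FPKM in PBS and 0.370 at the low dose, but 1.79 and a difference of -0.76 at the high dose. Ndufa2 had a median of 101 FPKM in PBS and 1.82 at the low dose, and its high-dose difference was -0.43. Outside complex I were Cox8a at -1.43 and, in complex V, Atp5g3 at -1.58 and Atp5o (ENSMUSG00000116933) at -1.09. Only Cox4i1 and Atp5g1 were higher on all 3 plates, by 0.92 and 0.71, and neither reached the fold. Cox4i1 had a median of 211 FPKM in PBS (0 to 2017) and 366 at the low dose (0.335 to 2448).

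Both comparisons use the same PBS cells, so their values are given only side by side. Between the doses, which share no cells, the high dose was lower for 57 of 79 subunits (72.2%, against 72.0% of all genes). The median was -0.46 against -0.24 for all genes. The complex V median was -0.73, with 15 of 18 lower (83.3%), and that of complex III was -0.27, with 5 of 8 lower (62.5%). Past the fold were 10 subunits in the lower direction (12.7%, against 5.66%) and 0 in the higher (against 0.479%). Ndufa8 was at -2.02, Cox7b at -1.96, Ndufb7 at -1.73, Uqcr10 at -1.51 and Cox6b1 at -1.43. After adjustment the median was -0.16, against -0.096 for all genes, with 5 past the fold lower (6.33%, against 2.48%) and 2 higher (2.53%, against 1.19%).

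Detection and level in the cells that had a gene differed in part. At the high dose 70 of 79 subunits, and 4131 of 4806 genes in all, were detected in a smaller share of cells than in PBS. The median difference in share was -12.4 percentage points, against -11.2 for all genes. Among cells in which the gene was detected, the median difference of log2 FPKM was -0.24 for the subunits and 0.083 for all genes. That level was lower for 44 of 79 subunits and for 2124 of 4667 genes. At the low dose the median difference in share was -7.91 points, against -6.38 for all genes, and the level in detected cells was higher by 0.27, against 0.26. Depth bears on such shares, and the median of assigned reads was 1626280 in PBS, 1801900 in low-dose cells and 1423330 in high-dose cells.

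Other genes of the pathway were described from lists by name, to be read beside all measured genes, of which 81.4% were lower at the high dose, 13.4% were past the fold lower and the median was -0.43. Of 50 assembly factors 16 were measured, with a high-dose median of -0.39 and 3 past the fold in the lower direction (18.8%): Cox14 (-1.44) and Sco2 (-1.31), which serve complex IV, and Tmem70 (-1.06), which serves complex V. Among 5 measured electron carriers and related genes, Cycs, which encodes cytochrome c, was at -1.78, with mean log2(FPKM + 1) of 5.42 in PBS and 3.64 at the high dose, while Cyc1 of complex III was at 0.43. All 12 measured enzymes of the pyruvate dehydrogenase complex and citric acid cycle were lower, with a median of -0.44 and 2 past the fold (16.7%), Idh3g (-1.53) and Pdhb (-1.22). Of 29 measured genes for mitochondrial carriers, channels and import 26 were lower, with a median of -0.69 and 4 past the fold (13.8%). Slc25a5, an ADP/ATP carrier detected in 100% of cells, was at -0.92 and its relative Slc25a4 at 0.36. Among 4 measured regulators of mitochondrial biogenesis, Gabpa and Esrra, which bind the ETS and estrogen-related receptor motifs, were at -0.23 and 0.053.

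The subunits lay between other housekeeping lists. At the high dose the median was -0.51 for 46 mitochondrial ribosomal proteins, -0.33 for 84 cytosolic ribosomal proteins with 6 past the fold (7.14%), -0.49 for 12 glycolytic enzymes with 0 past the fold, and -1.06 for 32 proteasome subunits with 15 past the fold (46.9%). On this scale the proteasome list, not the oxidative phosphorylation subunits, had the lowest median of the lists described. After adjustment the medians were -0.13, 0.0065, 0.10 and -0.50, beside -0.21 for the subunits. No test of the difference between lists was possible with 1 sample a group.

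**Figure D5:**
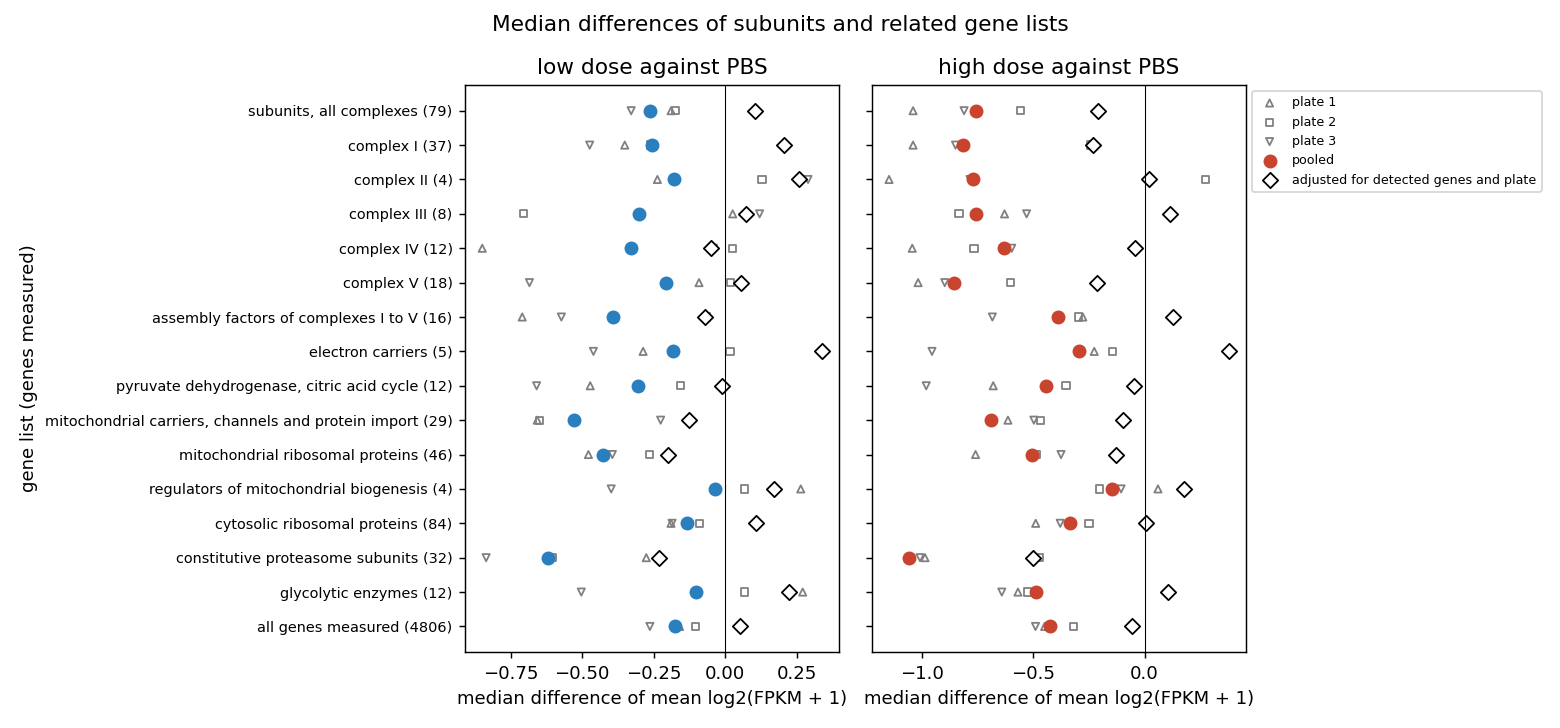
Median difference of mean log2(FPKM + 1) against PBS for the subunits, each complex and related gene lists (number measured in brackets), at the low dose (left) and high dose (right). Coloured points are pooled values, open grey symbols the 3 plates and white diamonds values adjusted for detected genes and plate; at the high dose the pooled medians of most lists lie below that of all genes (-0.43), those of assembly factors, electron carriers, biogenesis regulators and cytosolic ribosomal proteins above it.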

How the data were processed

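Single retinal cells were sequenced and, per the labels' protocols, cDNA was made and amplified in 1 tube per cell and tagmented with Nextera XT. The authors deposited FPKM values per gene and cell. The submitters' processing notes name featureCounts 1.6.1, STAR 2.7.2b, cutadapt 1.16, Trimmomatic 0.36 and Trim Galore 0.4.4, with the build GRCm38.p6; settings and strand use are not given in the sources used here.

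FPKM multiplied by gene length summed to 1 constant in each cell, and the most frequent such value was taken as 1 read. No molecular identifiers are named, so intervals cover counting error only. Levels are means of log2(FPKM + 1) over cells with at least 1000 detected genes, and genes detected in at least 25% of cells of any group were compared. No test was run, as the labels name no animal. The members and gene lists were chosen with earlier results of these data known.

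Genes named were, per dose, the 8 lowest and 4 highest members with the same sign on all plates, the 2 most abundant of each complex, the isoform sets and the Sdh genes; others were picked after their values were seen. Some items are not reported here, but are in the counts. For higher levels 2 members (low dose) and 1 member (high dose) met the rule. Overlaps and near copies (at least 95% identity over 75 bases) were found in GENCODE M21, which holds all 88 identifiers. The difference of mean log2(FPKM + 1) was tested on simulated counts with known folds, drawn from the mean PBS profile. Genes given a known fold were limited to those with many expected reads at the median depth. Genes missing from many cells were therefore not represented. Simulated cells differed only by depth and counting error, without plates, and the calls past the fold and the adjustment were not tested on them. Python 3.11.15, numpy 2.4.6, pandas 2.3.3, scipy 1.17.1 and matplotlib 3.10.9 were used. Alternatives changed the pseudocount, filters, scaling, adjustment, cells and plates.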

Additional observations from a re-analysis of the deposited data

How the results depend on the processing

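The median difference at the high dose against PBS kept its sign under the alternatives run, and that of the low dose did not. Medians of the low-dose difference became 0.16 on the ratio of mean FPKM, 0.17 in cells with at least 2000 genes, 0.10 after adjustment for detected genes and plate and 0.44 in the common range of detected genes (1716 to 4957). Medians of all genes were then 0.056, 0.12, 0.052 and 0.32. Past the fold in the lower direction were 5, 5, 5 and 3 subunits (8.59, 1.72, 1.48 and 1.59% of all genes). With a pseudocount of 0.1 the low- and high-dose medians were -0.40 and -1.07, with a pseudocount of 10 they were -0.073 and -0.38 with 3 and 4 past the fold (0.52 and 1.48% of all genes), and the high against low count was 17 and 4 (14.0 and 0.77%). Low- and high-dose medians of all genes were -0.34 and -0.74 with a pseudocount of 0.1, and -0.048 and -0.14 with a pseudocount of 10. Rescaling to protein-coding genes gave -0.37 and centring each cell gave -0.060 at the low dose, where it moved the median of all genes from -0.18 to 0.026. At the high dose against PBS the median was -0.052 with 8 past the fold on the ratio (all genes 12.0%), -0.32 with 7 in cells with at least 2000 genes (6.11%), -0.29 with 8 after centring (3.10%), -0.21 with 4 after adjustment (2.52%), -1.02 with 34 without cells with rod markers (19.2%) and -0.17 with 10 in the common range (5.93%). Medians of all genes, in that order, were -0.054, -0.14, 0.038, -0.055, -0.54 and -0.105. High against low gave -0.13 with 5 on the ratio (10.6%), -0.20 with 4 after centring (2.06%), -0.16 with 5 after adjustment (2.48%), -0.68 with 17 without cells with rod markers (9.38%) and a count of 19 in the common range (14.8%). Medians of all genes were -0.11 on the ratio, 0.018 after centring, -0.096 after adjustment and -0.34 without cells with rod markers. Leaving out plate 2 gave -0.36 with 16 past the fold at the low dose (9.32%) and 16 for high against low (10.3%), where the sign had to hold on fewer plates. Thinned to 300000 reads, an alternative chosen after seeing the data, the low-dose median was -0.37. Applying the alternatives to counts past the fold was also decided after seeing the data. The medians of detected subunits at any FPKM above 0 were 59.5, 57 and 58, and those of summed FPKM after rescaling were 27317, 27768 and 26548. Of 4266 single-subunit values under alternatives 3894 moved by less than 1 SD over plates and 366 moved further. That SD rests on 3 plate values, so a move within it does not show that a value is stable. Of the 79 subunits, the number lower at the low dose went from 55 to 18 in the common range. Sign changes were counted only for subunits past the fold, of which 6 values changed sign. Against PBS these were Ndufs8 at the low dose (0.52, common range) and, at the high dose, Atp5pb (0.054) and Ndufs3 (0.19) on the ratio, Ndufa13 in cells with at least 2000 genes (0.095) and in the common range (0.055), and Uqcr10 in the common range (0.26). The cause of these changes was not tested. No paired analysis was possible because the labels give no animal and each group is 1 sample.

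Without members of under 50% whole values, an alternative chosen after seeing the data, 59 subunits gave -0.75 at the high dose and -0.20 at the low dose. Kept cells with under 300000 reads were 5, 1 and 3 in PBS, low and high dose, and genes detected in few cells are the least precise.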
